A study of Mus musculus with 16 samples.

Results

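The genes described here are 47 genes of DNA replication and S phase, read in mouse CD8+ T cells kept in media with and without methionine. They were listed by role, and the measured value in the rule is the filter on low means given below: origin recognition (4 genes), licensing and the Mcm2 to Mcm7 helicase core (8), helicase activation (6), polymerases and primase (9), the sliding clamp and its loader (6), single-strand binding and maturation of the lagging strand (5), deoxynucleotide supply (5), and chromatin assembly, histone message and fork protection (4). The list was chosen with earlier results of these data known. All 47 listed genes were in the deposited table of 17159 genes, and all 47 passed the filter (mean of 10 or more depth-normalized reads) that left 12469 genes for testing. All cells came from C57BL/6 mice, had been stimulated through CD3 and CD28 with antibodies for 2 days, and were then held for 36 h in 1 of 4 media, with 4 libraries for each. The media were fresh medium with methionine (complete fresh medium), fresh medium without it, medium conditioned by the mouse melanoma line B16F10 (supernatant), and that supernatant with methionine added (supplemented supernatant). The labels give no methionine concentration for any medium, and separate animals or cultures are not named for the 4 libraries of a medium. Every p-value therefore measures the spread between libraries, which may be technical.

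Replication begins where the origin recognition complex marks DNA and where CDC6 and CDT1 load the ring-shaped MCM helicase onto it in G1. At the start of S phase CDC45 and the GINS complex bind the ring and turn it into an active helicase, DNA polymerase alpha with primase lays down primers, and polymerases delta and epsilon extend them on the PCNA clamp that replication factor C loads. RPA covers the exposed single strand, FEN1 and DNA ligase I join the pieces of the lagging strand, ribonucleotide reductase and thymidylate synthesis supply the building blocks, and CAF-1 places histones on the new DNA. Activated CD8+ T cells divide rapidly, many of these genes are transcribed mainly in cells that enter S phase, and E2F transcription factors are well known regulators of them.

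The libraries held 25.8 M to 42.3 M reads, and the lowest count of any of the 47 genes in any library was 472 reads. The median coefficient of variation of the 47 genes within a medium was 2.93% to 3.38%, against 4.17% to 5.15% over all genes tested. Together the 47 genes took 0.977% ± 0.0069 of the reads in complete fresh medium, 0.757% ± 0.011 without methionine, 0.625% ± 0.0078 in supernatant and 0.871% ± 0.010 in supplemented supernatant (mean ± SD, n = 4). The 8 listed CD8 T cell markers summed to 122766 to 126997 depth-normalized reads in complete fresh medium, 93997 to 96030 without methionine, 107330 to 109113 in supernatant and 128015 to 137337 in supplemented supernatant. Without methionine in fresh medium 5 of the 8 fell and 2 rose (median -0.66), where 42.3% of all genes fell and 43.3% rose. Their part in the results was not tested. Of the 7 melanoma markers 6 were in the table. Their sums were 103 to 134 reads in complete fresh medium, 257 to 282 without methionine, 231 to 257 in supernatant and 91.0 to 144 in supplemented supernatant, and the melanocyte genes Tyrp1 and Dct averaged under 5 reads in each medium. The 4 of 5 myeloid markers in the table summed to 337 to 398, 125 to 185, 136 to 155 and 156 to 215 reads in the same order, with Csf1r under 5. The 5 B cell markers summed to 503 to 542, 778 to 966, 731 to 858 and 363 to 385, with Pax5 under 5. The 4 NK cell markers summed to 1426 to 1559, 2030 to 2243, 3131 to 3296 and 2795 to 2914. The 4 CD4 T cell markers summed to 1976 to 2142, 3976 to 4121, 4101 to 4610 and 3323 to 3610. Single genes carried most of some sums. From complete to methionine-free fresh medium, Zbtb7b in the CD4 list went from 1781 to 3672 reads. Cd79b in the B cell list went from 511 to 821, and Cd68 in the myeloid list from 328 to 104. Of the 4 CD4 T cell markers 3 rose, and Cd4 itself did not pass (182 and 163). Of the 2 myeloid markers tested Cd68 fell, and Itgam did not pass (34.0 and 44.2). Among the 3 melanoma markers tested, Pmel rose (29.1 and 176) and Mitf rose (24.5 and 49.0), while Tyr fell (62.2 and 37.8). Of the 4 NK cell markers 2 rose and 1 fell. The marker sums moved with the media, and their part in the results on the replication genes was not tested. In bulk RNA, fewer cells in S phase and less of a message per cell cannot be told apart.

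Promoters are shown for the 2 genes with the lowest and the 2 with the highest ratio of methionine-free to complete fresh medium among those with a RefSeq promoter entry, since these 4 mark the ends of the range described below. Rfc4 (chr16:23127738-23127980, minus strand) and Pold1 (chr7:44548850-44549065, minus strand) were the lowest, and Orc5 (chr5:22550430-22550588, minus strand) and Chaf1a (chr17:56040166-56040415, plus strand) the highest. Coordinates and bases are those of RefSeq on GRCm38.p6, and each stretch ends at the RefSeq start or at the first annotated base of the gene in GENCODE M21, whichever comes first. Capitals mark 4 spellings of the E2F recognition sequence (TTCCCGC and its relative TTCGCGC, with TTGCCGC and its relative TTGGCGC, searched on both strands).
Rfc4: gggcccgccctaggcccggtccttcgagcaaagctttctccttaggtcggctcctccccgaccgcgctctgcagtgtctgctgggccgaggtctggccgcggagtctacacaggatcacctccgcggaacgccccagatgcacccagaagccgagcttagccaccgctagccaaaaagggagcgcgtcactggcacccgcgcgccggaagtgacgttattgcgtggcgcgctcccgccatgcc
Pold1: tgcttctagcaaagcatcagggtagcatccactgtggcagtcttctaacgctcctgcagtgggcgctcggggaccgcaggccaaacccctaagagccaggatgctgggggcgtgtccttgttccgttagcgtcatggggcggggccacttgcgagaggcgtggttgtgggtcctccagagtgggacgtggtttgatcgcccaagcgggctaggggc
Orc5: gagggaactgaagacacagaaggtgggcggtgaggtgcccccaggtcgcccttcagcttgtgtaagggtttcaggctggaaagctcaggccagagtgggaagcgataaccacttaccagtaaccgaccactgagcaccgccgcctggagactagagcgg
Chaf1a: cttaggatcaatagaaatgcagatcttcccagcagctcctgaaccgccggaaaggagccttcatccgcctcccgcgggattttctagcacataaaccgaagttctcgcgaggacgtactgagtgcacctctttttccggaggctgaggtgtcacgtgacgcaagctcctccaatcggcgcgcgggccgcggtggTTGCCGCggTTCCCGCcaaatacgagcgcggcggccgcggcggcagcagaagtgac

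The Chaf1a promoter held TTGCCGC from position -56 and TTCCCGC from position -47, counted from the RefSeq start, and a CCAAT box from position -81. In Rfc4 and Pold1 the match lay after the start, TTCCCGC on the opposite strand at position 12 in Rfc4 and 40 in Pold1, outside the stretch shown. The Orc5 window held none of the 4 spellings. Over windows of 300 bases (250 before the start and 50 after it), 25 of the 39 genes with an entry (64.1%) held an E2F spelling, against 2936 of 27025 mouse genes (10.9%). Matches were found in 18 of the 28 genes that fell without methionine in fresh medium, in 5 of the 9 that rose and in both of the 2 that passed in neither direction. By role they were in 6 of 7 licensing and helicase core genes, 5 of 7 polymerase and primase genes, 4 of 5 strand binding and maturation genes, 3 of 5 clamp and loader genes, 2 of 4 origin recognition genes, 2 of 5 deoxynucleotide genes, 2 of 3 chromatin and fork genes and 1 of 3 helicase activation genes. CCAAT, which can share letters with TTGGCGC read on the other strand, was in 23 of the 39 (59.0%) and in 41.1% of all genes. A match is a string of letters and was not tested as a binding site. No promoter entry was found for Gins1, Gins2, Gins4, Mcm4, Pole, Prim2, Rfc2 and Tipin.

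The first comparison asked how the genes differed between fresh medium without and with methionine. Most of the machinery that unwinds and copies DNA was lower without methionine: 34 of the 47 genes fell, 10 rose and 3 did not pass the test. The largest falls were in the clamp loader subunit Rfc4, at a log2 difference of -1.38 (SE 0.043, adjusted p = 1.6e-24), in the catalytic polymerase delta subunit Pold1, in the primase subunit Prim2 at -1.28 (SE 0.049, adjusted p = 3.44e-22) and in the ligase Lig1. The 10 genes that rose were Orc2, Orc4, Orc5, Mcm10, Gins3, Gins4, Fen1, Rrm2, Tyms and Chaf1a, and the 3 that did not pass were Cdc6, Pola1 and Tipin. The median over the 47 genes was -0.51, against 0.0092 over all genes tested, and the SD among the 47 was 0.55. A gene is said to have risen or fallen where limma's test on log2(depth-normalized reads + 1) gave a Benjamini-Hochberg adjusted p under 0.05 over all 12469 genes, and differences are on that scale. In this comparison 85.6% of all genes passed, 42.3% lower and 43.3% higher, so a call alone sets no gene apart. The counts of each role group below stand beside the same shares. In each of the 44 genes that passed, the 4 libraries of either medium lay wholly above or wholly below those of the other. How many of all genes were separated in this way was not counted, so this separation sets no gene apart either. Scaling each library to its total reads moved the median of all genes to 0.17 and gave 31 lower and 13 higher, and under it Prim1, which fell here, stood at 0.0073 (adjusted p = 0.863). From FPKM, 31 fell and 5 rose, and 32 and 7 did with a block for the replicate number. Of all genes 59.7% passed from FPKM, and 79.8% with the block.

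**Figure D1:**
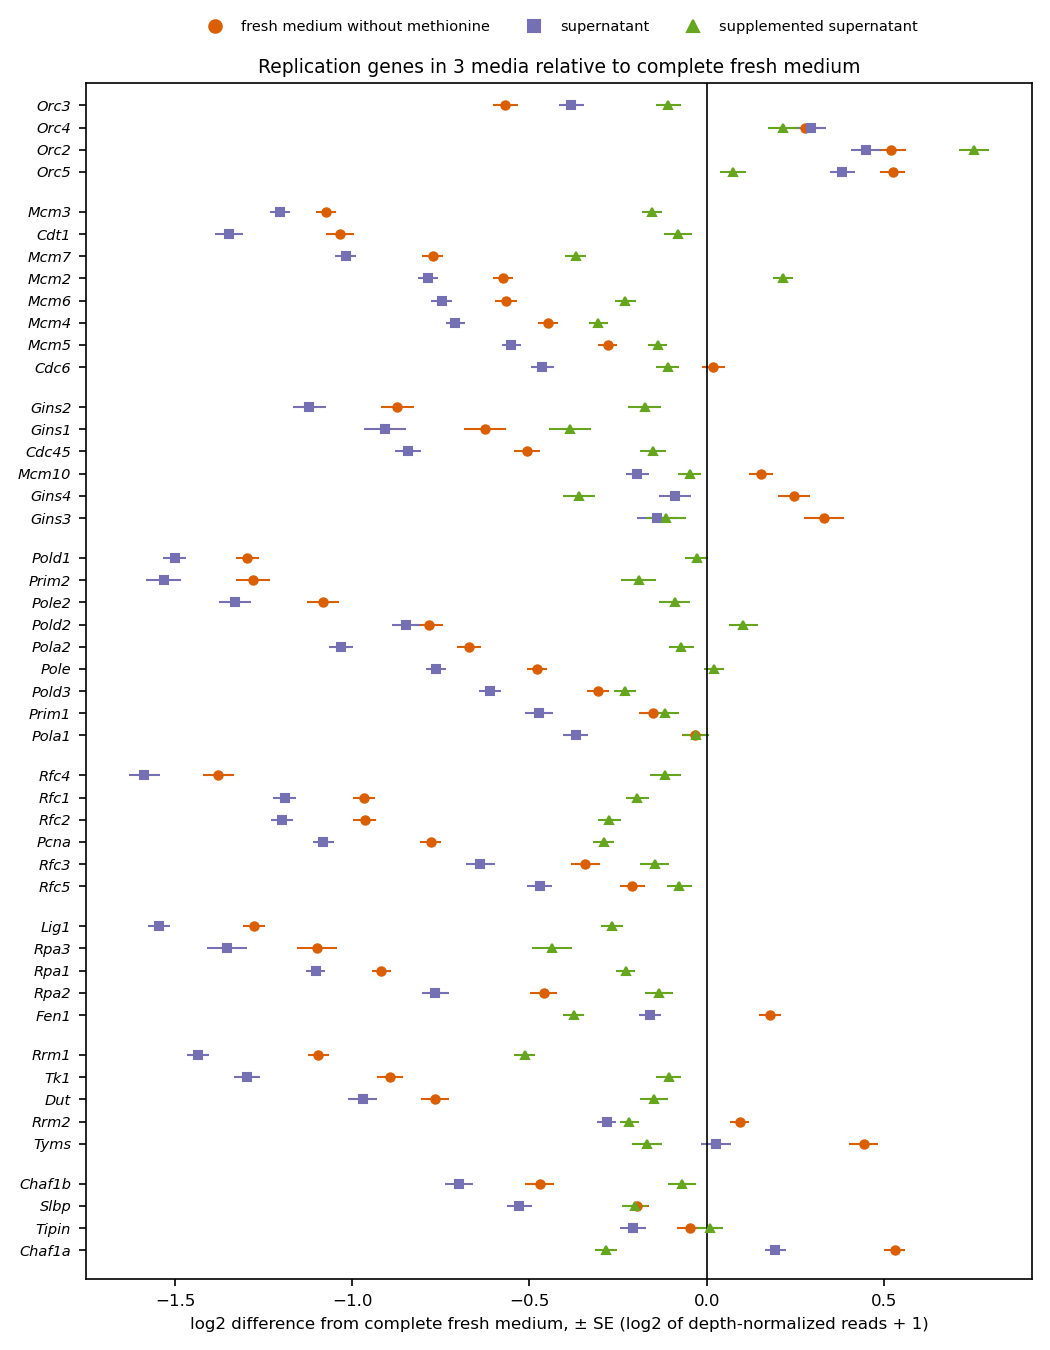
Log2 difference from complete fresh medium (x axis, ± SE from limma) of each of the 47 genes (y axis, by role group and then by the value without methionine) in fresh medium without methionine, supernatant and supplemented supernatant. In most rows the circle and the square lie left of 0 with the square further left, and the triangle of supplemented supernatant lies close to 0.

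Origin recognition was mixed. ORC proteins bind origins as a complex, and 3 of the 4 subunits listed, Orc2, Orc4 and Orc5, rose without methionine while Orc3 fell (group median 0.40). Over all genes 43.3% rose and 42.3% fell. Orc3 (chr4:34570796-34614944) had 4002, 3999, 4173 and 4265 depth-normalized reads in complete fresh medium and 2644, 2768, 2852 and 2825 in fresh medium without methionine. It had 3126, 2969, 3260 and 3266 in supernatant and 3798, 3773, 3740 and 3933 in supplemented supernatant. Its libraries in fresh medium without methionine were all below those of the other 3 media, with a difference of -0.57 (SE 0.035, adjusted p = 2.76e-16) from complete fresh medium. Orc5 (chr5:22486485-22550429) had 2069, 1849, 2015 and 2074 depth-normalized reads in complete fresh medium and 2852, 2894, 2879 and 2885 in fresh medium without methionine, a difference of 0.52 (SE 0.036, adjusted p = 2.88e-15). It had 2606, 2612, 2622 and 2592 in supernatant and 2123, 2087, 2153 and 2058 in supplemented supernatant. The 2 media without added methionine stood above the 2 with it in every library of Orc5. Orc2 rose by 0.52 (SE 0.042, adjusted p = 3.15e-13) and Orc4 by 0.28 (SE 0.041, adjusted p = 2.36e-07). In FPKM without a replicate block Orc3 (-0.43, adjusted p = 0.18) and Orc4 (0.37, adjusted p = 0.399) did not pass. Orc1 and Orc6 are not among the listed members but belong to the second list of replication genes below. They were looked up after the values above were seen. They differed by -1.0 (SE 0.058, adjusted p = 3.35e-17) and -0.16 (SE 0.045, adjusted p = 0.00202). The complex thus held subunits of both directions, although Orc6 stood at 0.0044 (adjusted p = 0.929) with total-read scaling. Exons of Orc2 and Orc4 overlap genes on the opposite strand (Nif3l1 for Orc2, Acvr2a and Mbd5 for Orc4) and those of Orc5 a same-strand pseudogene, Gm15421. The strand used in counting is not given in the sources used here, so reads of such pairs may be mixed.

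Licensing and the helicase core fell almost throughout. All 6 subunits of the MCM ring were lower without methionine, from -0.28 in Mcm5 to -1.07 in Mcm3, and the loader Cdt1 differed by -1.04 (SE 0.039, adjusted p = 2.97e-22), while Cdc6 did not pass (group median -0.57, 7 of 8 lower). Mcm3 (chr1:20802968-20820312) had 19865, 19983, 19793 and 20418 depth-normalized reads in complete fresh medium and 9161, 9582, 9746 and 9537 in fresh medium without methionine. It had 8784, 8905, 8570 and 8489 in supernatant and 17828, 18091, 18767 and 17260 in supplemented supernatant. The Mcm3 libraries of both media without added methionine were all below those of both media with it, at -1.07 (SE 0.029, adjusted p = 1.61e-26) in fresh medium. Cdc6 (chr11:98907801-98923940), the ATPase that recruits CDT1 and the ring to the origin complex, had 3708, 3924, 3717 and 3900 depth-normalized reads in complete fresh medium and 3801, 3876, 3882 and 3887 in fresh medium without methionine, a difference of 0.019 (SE 0.033, adjusted p = 0.594). It had 2790, 2835, 2627 and 2804 in supernatant and 3552, 3472, 3656 and 3454 in supplemented supernatant. The fresh media overlapped for Cdc6, and supernatant stood below all 12 other libraries. The ring is built of all 6 subunits together, and their differences were unequal: Mcm2 stood at -0.57, Mcm4 at -0.45, Mcm6 at -0.57 and Mcm7 at -0.77. With quantile normalization the fall of Mcm5 was lost (-0.0083, adjusted p = 0.774), and with total-read scaling Cdc6 passed as higher (0.18, adjusted p = 6.53e-06). Exons of Mcm7 overlap Ap4m1 and Cops6 on the opposite strand and Mir25 and Mir93 on the same strand.

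Helicase activation was split, with 3 genes lower and 3 higher (group median -0.18), where 42.3% of all genes fell and 43.3% rose. GINS is a ring of 4 different subunits, and Gins1 and Gins2 fell while Gins3 and Gins4 rose. Gins2 (chr8:120578633-120589304) had 1916, 1832, 1848 and 1903 depth-normalized reads in complete fresh medium and 945, 1026, 1022 and 1103 in fresh medium without methionine, a difference of -0.87 (SE 0.046, adjusted p = 4.03e-18). It had 902, 846, 875 and 824 in supernatant and 1607, 1752, 1698 and 1591 in supplemented supernatant. Gins3 (chr8:95633453-95645060) had 893, 1061, 1028 and 1090 depth-normalized reads in complete fresh medium and 1236, 1287, 1378 and 1210 in fresh medium without methionine, a difference of 0.33 (SE 0.056, adjusted p = 2.45e-06). It had 983, 901, 860 and 942 in supernatant and 925, 944, 899 and 982 in supplemented supernatant. The 4 libraries of Gins3 without methionine in fresh medium were the highest of all 16, and those of the other 3 media overlapped. Gins1 differed by -0.63 (SE 0.059, adjusted p = 1.16e-11) and Gins4 by 0.25 (SE 0.046, adjusted p = 9.63e-06). Cdc45, which binds GINS and the ring, differed by -0.51 (SE 0.037, adjusted p = 1.94e-14), and Mcm10, which helps to activate the helicase, by 0.15 (SE 0.033, adjusted p = 8.52e-05). In FPKM with a replicate block Mcm10 did not pass (0.11, adjusted p = 0.0854). Gins4 did not pass in FPKM without the block (0.20, adjusted p = 0.0599). Exons of Gins2 overlap Gse1 and those of Cdc45 overlap Ufd1, on the opposite strand.

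Polymerases and primase fell in 8 of 9 cases (group median -0.67). Pold1 (chr7:44532746-44548849), the catalytic subunit of polymerase delta, had 10831, 11042, 10807 and 9900 depth-normalized reads in complete fresh medium and 4354, 4293, 4279 and 4402 in fresh medium without methionine, a difference of -1.30 (SE 0.033, adjusted p = 4.22e-27). It had 3726, 3760, 3720 and 3817 in supernatant and 10772, 10651, 10537 and 9793 in supplemented supernatant. Every Pold1 library with added methionine was at or above 9793 reads and every library without it at or below 4402, in either kind of medium. Pola1 (chrX:93304767-93632155), the catalytic subunit of polymerase alpha, had 5008, 4877, 4996 and 5405 depth-normalized reads in complete fresh medium and 4761, 5045, 4989 and 5025 in fresh medium without methionine, a difference of -0.033 (SE 0.036, adjusted p = 0.397). It had 3889, 3845, 4008 and 3942 in supernatant and 4908, 4631, 5052 and 5289 in supplemented supernatant. Only the supernatant libraries stood apart for Pola1, below the other 12. Subunits of the same enzyme again differed in size. Pold2 stood at -0.78 and Pold3 at -0.31 beside Pold1, the polymerase epsilon subunit Pole2 at -1.08 beside Pole at -0.48, the alpha subunit Pola2 at -0.67, and the primase subunits Prim1 and Prim2 at -0.15 and -1.28. With total-read scaling Pola1 passed in the other direction (0.13, adjusted p = 0.00149). Exons of Pole2 overlap the protein-coding gene Gm49384 on the same strand, and those of Pole overlap Gm15792 on the opposite strand.

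The clamp and all 5 loader subunits fell (6 of 6, group median -0.87). Rfc4 (chr16:23113943-23127737) had 2640, 2625, 2538 and 2746 depth-normalized reads in complete fresh medium and 991, 1066, 1015 and 986 in fresh medium without methionine. It had 883, 912, 868 and 846 in supernatant and 2477, 2308, 2623 and 2329 in supplemented supernatant. Rfc4 had the largest difference of the 47 genes, and its libraries without added methionine were all under those with it. Rfc5 (chr5:117378103-117389047) had 2851, 3068, 2948 and 3067 depth-normalized reads in complete fresh medium and 2493, 2654, 2545 and 2627 in fresh medium without methionine, a difference of -0.21 (SE 0.034, adjusted p = 1.18e-06). It had 2206, 2091, 2134 and 2171 in supernatant and 2824, 2875, 2829 and 2783 in supplemented supernatant. Rfc5 differed least in the group, and with total-read scaling it did not pass (-0.050, adjusted p = 0.169). Rfc1, the large subunit, and Rfc2 stood together at -0.97 and -0.97, Pcna itself at -0.78 (SE 0.030, adjusted p = 3.54e-22) and Rfc3 at -0.34. Exons of Rfc4 overlap Eif4a2, those of Rfc2 overlap Lat2 and those of Rfc5 overlap Wsb2, each on the opposite strand, and Pcna has the annotated pseudogenes Pcna-ps1 and Pcna-ps2.

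Single-strand binding and lagging-strand maturation parted between the 3 RPA subunits and the ligase, which fell, and the flap nuclease Fen1, which rose (group median -0.92, 4 lower and 1 higher). Lig1 (chr7:13277283-13311433) had 14439, 13966, 14414 and 14991 depth-normalized reads in complete fresh medium and 5667, 6111, 5988 and 6101 in fresh medium without methionine, a difference of -1.28 (SE 0.031, adjusted p = 1.44e-27). It had 4927, 4744, 4933 and 5194 in supernatant and 12041, 12207, 12049 and 11706 in supplemented supernatant. Fen1 (chr19:10199132-10204169) had 5359, 5454, 5300 and 5198 depth-normalized reads in complete fresh medium and 5870, 5881, 6051 and 6310 in fresh medium without methionine, a difference of 0.18 (SE 0.031, adjusted p = 3.38e-06). It had 4762, 4956, 4733 and 4625 in supernatant and 4038, 4179, 4155 and 4051 in supplemented supernatant. The 4 media did not overlap for Fen1, which ran from fresh medium without methionine at the top through complete fresh medium and supernatant to supplemented supernatant. FEN1 cuts the flap before ligase I seals the strand, and the messages of these neighbouring steps moved in opposite directions. Rpa1 stood at -0.92 (SE 0.027, adjusted p = 2.47e-25), Rpa2 at -0.46 (SE 0.039, adjusted p = 8.21e-13) and Rpa3 at -1.10 (SE 0.056, adjusted p = 1.53e-18). In FPKM with a replicate block Fen1 did not pass (0.054, adjusted p = 0.337). Exons of Lig1 overlap Zswim9 and those of Fen1 overlap Tmem258 and Gm10143, on the opposite strand. Those of Rpa1 overlap Gm47300 on the same strand.

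Deoxynucleotide supply also divided within an enzyme. Ribonucleotide reductase needs both a large subunit, Rrm1, and a small one, which Rrm2 can provide. Rrm1 (chr7:102441695-102469771) had 21752, 21125, 21547 and 22417 depth-normalized reads in complete fresh medium and 9760, 10269, 10473 and 10134 in fresh medium without methionine, a difference of -1.10 (SE 0.030, adjusted p = 3.14e-26). It had 8438, 7941, 7951 and 7787 in supernatant and 14893, 15049, 15764 and 15122 in supplemented supernatant. Rrm2 differed by 0.093 (SE 0.027, adjusted p = 0.0021), with means of 18063 ± 135 depth-normalized reads in complete fresh medium and 19262 ± 186 in the methionine-free one (SD, n = 4), and it did not pass in FPKM with a replicate block (0.085, adjusted p = 0.138). Thymidylate is made from deoxyuridylate by thymidylate synthase, Tyms, and from salvaged thymidine by thymidine kinase, Tk1. Tyms (chr5:30058202-30073617) had 2330, 2310, 2105 and 2306 depth-normalized reads in complete fresh medium and 2944, 3158, 3206 and 3000 in fresh medium without methionine, a difference of 0.44 (SE 0.041, adjusted p = 9.42e-12). It had 2334, 2377, 2248 and 2252 in supernatant and 1978, 1954, 2186 and 1939 in supplemented supernatant. The fresh medium without methionine held the 4 highest Tyms libraries, and complete fresh medium overlapped with both supernatant media. Tk1 differed by -0.89 (SE 0.036, adjusted p = 1.79e-21) and Dut, which breaks down dUTP, by -0.77 (SE 0.040, adjusted p = 3.12e-18). The group had 3 lower and 2 higher genes and a median of -0.77, where 42.3% of all genes fell and 43.3% rose. Tyms has an annotated pseudogene, Tyms-ps. Exons of Tk1 overlap Afmid on the opposite strand.

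In the group of chromatin assembly, histone message and fork protection, the 2 CAF-1 subunits listed moved apart. Chaf1a (chr17:56040439-56072289), the large subunit, had 5670, 5632, 5527 and 5773 depth-normalized reads in complete fresh medium and 7949, 8088, 8509 and 8112 in fresh medium without methionine, a difference of 0.53 (SE 0.030, adjusted p = 2.21e-17). It had 6579, 6688, 6222 and 6358 in supernatant and 4712, 4644, 4518 and 4689 in supplemented supernatant. Chaf1b (chr16:93883901-93906115) had 3004, 2866, 2808 and 2856 depth-normalized reads in complete fresh medium and 2056, 2087, 2065 and 2109 in fresh medium without methionine, a difference of -0.47 (SE 0.040, adjusted p = 9.34e-13). It had 1775, 1852, 1689 and 1787 in supernatant and 2835, 2634, 2959 and 2572 in supplemented supernatant. For Chaf1a the libraries without added methionine were all above those with it, and for Chaf1b all below. Slbp, which binds the stem loop of histone messages, differed by -0.20 (SE 0.035, adjusted p = 4.61e-06) and lost its call with total-read scaling (-0.037, adjusted p = 0.299). Tipin, a partner of Timeless at the fork, stood at -0.046 (SE 0.037, adjusted p = 0.238), and with total-read scaling it passed in the other direction (0.11, adjusted p = 0.00392). Exons of Chaf1a overlap Ubxn6 and those of Slbp overlap Gm10459, on the opposite strand.

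**Figure D2:**
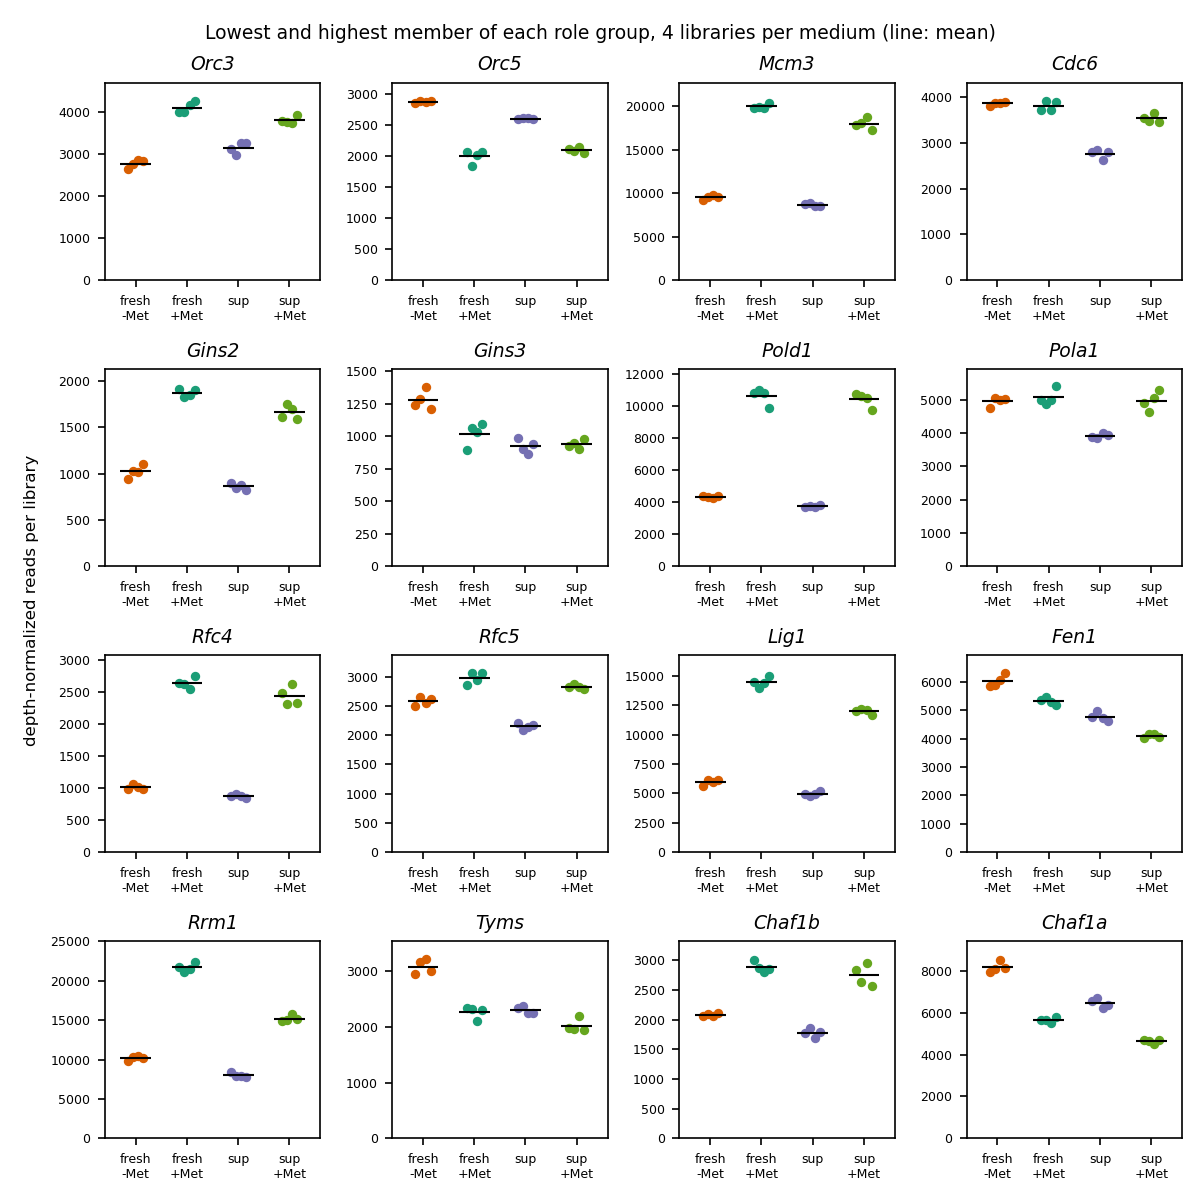
Depth-normalized reads (y axis, from 0) in each of the 16 libraries for the gene with the lowest and the gene with the highest difference between the fresh media in each role group, with points for libraries and a line for the mean of each medium (fresh -Met, fresh +Met, sup for supernatant, sup +Met for supplemented supernatant). Genes such as Pold1 and Lig1 form a low pair of media without added methionine and a high pair with it, while Chaf1a and Orc5 show the reverse.

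Against complete fresh medium, tumour cell supernatant without added methionine gave lower values in more of the genes: 41 of 47 fell, 4 rose and 2 did not pass (median -0.76, against 0.0011 over all genes, of which 85.5% passed, 42.5% lower and 43% higher). This comparison shares the complete fresh medium libraries with the first. Lig1 stood at -1.55 (SE 0.031, adjusted p = 8.78e-30), Rfc4 at -1.59 (SE 0.043, adjusted p = 3.2e-26), Prim2 at -1.53 (SE 0.049, adjusted p = 2.26e-24) and Pold1 at -1.50 (SE 0.033, adjusted p = 7.91e-29). The genes that rose were Orc2, Orc4, Orc5 and Chaf1a, at 0.45, 0.29, 0.38 and 0.19, and the 2 that did not pass were Gins4 (-0.089, adjusted p = 0.0684) and Tyms (0.026, adjusted p = 0.559). Fen1, Rrm2, Mcm10 and Gins3, which had risen without methionine in fresh medium, fell here, at -0.16, -0.28, -0.20 and -0.14. Of these, Gins3 (adjusted p = 0.0206) lost its call without supernatant library 2 (-0.11, adjusted p = 0.092) and without complete fresh medium library 1 (-0.12, adjusted p = 0.066) or 3 (-0.11, adjusted p = 0.0876), and with total-read scaling it stood at 0.0049 (adjusted p = 0.937). Fen1 (-0.014, adjusted p = 0.67) and Mcm10 (-0.050, adjusted p = 0.151) did not pass with that scaling either, and Rrm2 did not with quantile normalization (-0.047, adjusted p = 0.0755). From FPKM, limma called 35 lower and 0 higher (0 higher at an unadjusted p under 0.05), and 41 and 4 with a replicate block, while edgeR and DESeq2 each called 4 higher on the reads. Of all genes 58.9% passed from FPKM, and 79.3% with the block.

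Adding methionine to the supernatant moved most of the genes up. Of the 47, 40 rose, 5 fell and 2 did not pass, with a median of 0.63 against -0.0041 over all genes, of which 83.7% passed, 41.8% higher and 41.8% lower. Pold1 stood at 1.47 (SE 0.033, adjusted p = 2.58e-28), Rfc4 at 1.47 (SE 0.043, adjusted p = 4.74e-25), Prim2 at 1.34 (SE 0.049, adjusted p = 1.46e-22), Lig1 at 1.28 (SE 0.031, adjusted p = 2.66e-27) and Cdt1 at 1.27 (SE 0.039, adjusted p = 1.75e-24). All 6 ring subunits rose, with 1.05 in Mcm3 and 1.0 in Mcm2 at the upper end and 0.40 in Mcm4 at the lower. All 9 polymerase and primase genes and all 6 clamp and loader genes rose. The 5 that fell were Orc5 (-0.31), Gins4 (-0.27), Fen1 (-0.22), Tyms (-0.19) and Chaf1a (-0.48), and Orc4 (-0.079, adjusted p = 0.0753) and Gins3 (0.026, adjusted p = 0.671) did not pass. The value of Rrm2, 0.064 (adjusted p = 0.0284), was the smallest that passed. It lost its call without supernatant library 3 (0.043, adjusted p = 0.157) and without supplemented supernatant library 2 (0.056, adjusted p = 0.068) or 3 (0.053, adjusted p = 0.0743), and it turned to -0.068 (adjusted p = 0.0172) with total-read scaling and to -0.14 (adjusted p = 4.37e-06) with quantile normalization. From FPKM, 33 rose and 1 fell, and 39 and 5 did with a replicate block. Of all genes 53.4% passed from FPKM, and 76.5% with the block.

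The methionine difference in fresh medium and the one in supernatant share no library and could be set side by side. Over the 47 genes, with minus without methionine, they had the same sign in 42 (89.4%), with Pearson's r 0.939 and Spearman's rho 0.940. Over all genes tested the same sign was found in 85.8%, with r 0.895 and rho 0.879. These are correlations across genes, which are not independent replicates, and they are given as a description. The difference between both methionine effects was tested as the interaction of medium and methionine, coded as the effect in supernatant minus the effect in fresh medium. It passed with a positive value for 26 of the 47 genes and with a negative value for 3 (median 0.15, against 0.012 over all genes, of which 52.6% passed, 27.6% positive and 25% negative). A positive value can be a larger rise with methionine in supernatant or, as in Orc5 at 0.22 (SE 0.050, adjusted p = 0.000522), a smaller fall. The largest was Orc2 at 0.82 (SE 0.060, adjusted p = 2.04e-13): methionine went with less Orc2 in fresh medium and with more in supernatant. Mcm2 stood at 0.43 (SE 0.040, adjusted p = 1.22e-10), Cdc6 at 0.37 (SE 0.046, adjusted p = 3.36e-08), Gins3 at 0.36 (SE 0.079, adjusted p = 0.000316), Pola1 at 0.31 (SE 0.051, adjusted p = 5.76e-06) and Pole at 0.31 (SE 0.040, adjusted p = 8.11e-08). The 3 that passed with a negative value were Orc3 at -0.29 (SE 0.050, adjusted p = 8.06e-06), Rrm1 at -0.17 (SE 0.042, adjusted p = 0.000821) and Mcm7 at -0.12 (SE 0.043, adjusted p = 0.015), the last of which did not pass with TMM scaling (-0.099, adjusted p = 0.0672) or quantile normalization (-0.079, adjusted p = 0.101). For Mcm3 and Lig1 the interaction did not pass, at -0.025 (SE 0.040, adjusted p = 0.633) and 0.0018 (SE 0.044, adjusted p = 0.977). From FPKM, limma called 0 of the 47 in the interaction (3 positive at an unadjusted p under 0.05) and 9 as positive with a replicate block, while on the reads edgeR called 25 and DESeq2 24 as positive. Of all genes 6.9% passed from FPKM, and 33.8% with the block.

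**Figure D3:**
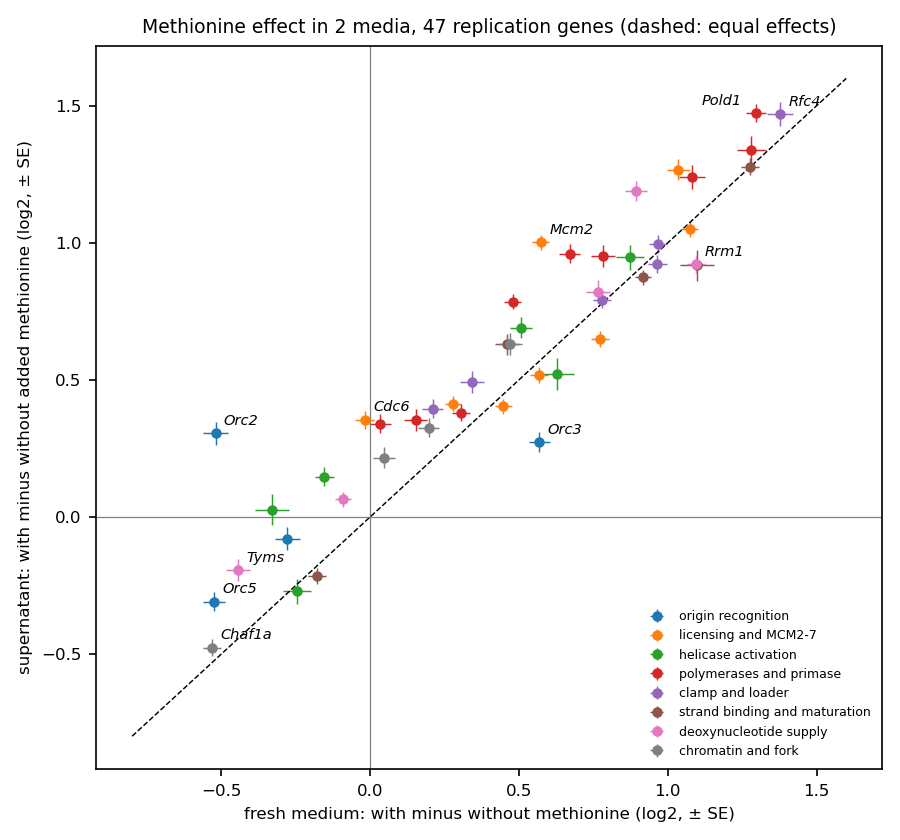
Log2 difference with minus without methionine in fresh medium (x axis) and in supernatant (y axis) for the 47 genes, with ± SE bars from limma, coloured by role group, and a dashed line where both would be equal. Most points lie at the upper right on or above the dashed line, Orc2 lies at the upper left, and Orc5, Chaf1a and Tyms lie at the lower left.

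The effect of supernatant was read apart from added methionine. In supernatant against fresh medium without methionine, 43 of the 47 genes fell, Orc3 rose by 0.19 (SE 0.035, adjusted p = 0.000121) and 3 did not pass, where 26.8% of all genes passed, 12.9% lower and 14% higher. The median was -0.27, against 0.0026 over all genes, and the SD over the 47 genes was 0.12, against 0.23 over all genes. The values were small on the log2 scale and of 1 sign in nearly every gene. Their median lay between percentiles 5 (-0.34) and 10 (-0.23) of all genes in this comparison. Group medians were -0.25 for licensing and the helicase core, -0.34 for helicase activation, -0.29 for polymerases and primase, -0.24 for clamp and loader, -0.27 for strand binding and maturation, -0.38 for deoxynucleotide supply, -0.28 for chromatin and fork and -0.027 for the 4 listed origin recognition genes. Orc1 and Orc6, which are not on the list, fell here, by 0.26 (adjusted p = 0.000772) and 0.28 (adjusted p = 1.04e-05) on the log2 scale. Genes that had risen without methionine in fresh medium were among those that fell, such as Gins3 at -0.47 (SE 0.056, adjusted p = 5.83e-08), Tyms at -0.42 (SE 0.041, adjusted p = 1.42e-09), Rrm2 at -0.38 (SE 0.027, adjusted p = 1.39e-12), Chaf1a at -0.34 (SE 0.030, adjusted p = 1.55e-10) and Fen1 at -0.34 (SE 0.031, adjusted p = 2.66e-10). That rise and this fall use the same libraries of fresh medium without methionine, so high values there favour both. The lowest of the 47 genes was Cdc6 at -0.48 (SE 0.033, adjusted p = 3.81e-13). The 3 that did not pass were Orc2 (-0.070), Orc4 (0.016) and Pold2 (-0.065), at adjusted p 0.235, 0.828 and 0.249. From FPKM, 1 of the 47 passed as lower (25 at an unadjusted p under 0.05), and with a block for the replicate number 39 did. Of all genes 0.281% passed from FPKM, and 12.7% with the block.

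In supplemented supernatant against complete fresh medium, 32 genes fell, 4 rose and 11 did not pass, where 65% of all genes passed, 32.5% lower and 32.5% higher. The median was -0.15, against -0.0033 over all genes. Rrm1 stood lowest at -0.51 (SE 0.030, adjusted p = 3.56e-16), followed by Rpa3 at -0.44 (SE 0.056, adjusted p = 3.93e-08), Gins1 at -0.39 (SE 0.059, adjusted p = 8.6e-07) and Fen1 at -0.38 (SE 0.031, adjusted p = 1.85e-12). The genes that rose were Orc2 at 0.75 (SE 0.042, adjusted p = 1.23e-16), Orc4 at 0.22 (SE 0.041, adjusted p = 3.31e-05), Mcm2 at 0.21 (SE 0.029, adjusted p = 7.31e-08) and Pold2 at 0.10 (SE 0.040, adjusted p = 0.0241). Pold2 lost its call without complete fresh medium library 3 (0.065, adjusted p = 0.148) or supplemented supernatant library 2 (0.078, adjusted p = 0.107). Among genes with large falls in both media without added methionine, Lig1 at -0.27 (SE 0.031, adjusted p = 4.99e-09) and Prim2 at -0.19 (SE 0.049, adjusted p = 0.000893) fell here too, while Pold1 at -0.028 (SE 0.033, adjusted p = 0.469) and Cdt1 at -0.081 (SE 0.039, adjusted p = 0.0714) did not pass. Cdt1 passed as lower without complete fresh medium replicate 3 (-0.11, adjusted p = 0.0156) or supplemented supernatant replicate 0 (-0.11, adjusted p = 0.0296). From FPKM, 6 passed as lower and 1 as higher, and with the block 24 and 2 did. Of all genes 17.9% passed from FPKM, and 49.4% with the block. Both supernatant effects share no library, and over the 47 genes they had the same sign in 40 (85.1%), against 55.8% of all genes, with r 0.396 and rho 0.271 against 0.180 and 0.165.

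**Figure D4:**
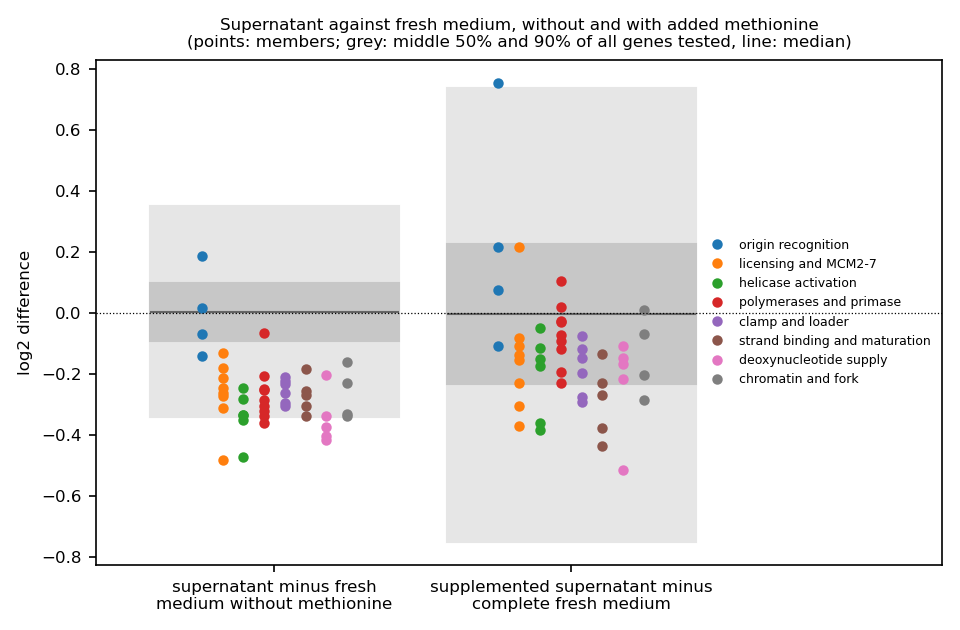
Log2 difference (y axis) of supernatant from fresh medium without methionine (left) and of supplemented supernatant from complete fresh medium (right), with a point for each of the 47 genes by role group, and grey bands for the middle 50% and 90% of all genes tested with a line at their median. On the left most points lie in a narrow band around -0.27, under the inner grey band, and on the right they centre on -0.15 inside it.

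Ordered by their means, 30 of the 47 genes were lowest in supernatant, then fresh medium without methionine, then supplemented supernatant, and highest in complete fresh medium. How many of all genes had this order was not counted, so the order alone sets no gene apart. For Mcm2, Pold2, Pole and Tipin the order was the same except that supplemented supernatant came highest. Cdc6, Mcm10, Gins3 and Rrm2 were highest in fresh medium without methionine and lowest in supernatant. Tyms and Chaf1a were lowest in supplemented supernatant and highest in fresh medium without methionine, with supernatant second highest, and Gins4 and Fen1 had the same ends with complete fresh medium second highest. Neighbours in these orders did not always differ, as for Pole, whose means in complete fresh medium and supplemented supernatant were 9302 ± 251 and 9435 ± 123 reads (SD, n = 4, adjusted p = 0.532 by limma).

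Levels of different genes were compared only per length of transcript, in the deposited FPKM. In complete fresh medium Pcna was the most abundant of the 47 at 595 ± 109 FPKM (SD, n = 4), followed by Mcm6 at 298 ± 23.6, Mcm7 at 278 ± 30.8 and Rrm2 at 272 ± 36.9, and the last 3 lay within each other's spread. The 6 ring subunits ran from 115 ± 7.30 in Mcm2 to the level of Mcm6. The least abundant were Gins3 at 12.0 ± 1.71, Orc4 at 15.9 ± 4.83, Tyms at 16.3 ± 2.47 and Orc3 at 20.8 ± 4.90. Pcna ranked first and Gins3 last in all 4 media. Among the 47, Pold1 ranked 14 in complete fresh medium and 28 without methionine, and Rfc4 ranked 19 and 36. Fen1 went from rank 22 to 10 and Chaf1a from 31 to 16. Rrm1 and Rrm2 stood at 154 ± 21.8 and 272 ± 36.9 FPKM with methionine and at 72.7 ± 7.33 and 288 ± 24.5 without it in fresh medium.

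A second list of replication genes, which does not overlap the 47, is given for comparison. This list, like the mitosis genes below, was chosen with earlier results of these data known and is not independent of them. Of its 36 genes, 35 were tested, and without methionine in fresh medium 24 fell, 9 rose and 2 did not pass (median -0.32), where 42.3% of all genes fell and 43.3% rose. The lowest were Timeless, a fork protection factor, at -1.23 (SE 0.036, adjusted p = 1.64e-25), the histone chaperone Nasp at -1.09 (SE 0.039, adjusted p = 4.55e-23) and the alternative clamp loader subunit Chtf18 at -1.08 (SE 0.052, adjusted p = 2.83e-19). The highest were the nuclease Exo1 at 0.86 (SE 0.036, adjusted p = 7.25e-21), the histone chaperone Asf1a at 0.69 (SE 0.048, adjusted p = 6.38e-15) and the polymerase epsilon subunit Pole4 at 0.63 (SE 0.035, adjusted p = 1.92e-17). Timeless fell while its partner Tipin did not pass. In supplemented supernatant against supernatant 28 of the 35 rose and 6 fell (median 0.59), where 41.8% of all genes rose and 41.8% fell. In supernatant 27 were lower and 1 higher than in fresh medium without methionine (median -0.25), against 12.9% and 14% of all genes. Of 24 genes of mitosis, 23 fell without methionine in fresh medium, with a median of -0.62 beside 0.0092 over all genes, of which 42.3% fell. All 24 fell in supernatant against fresh medium without methionine, with a median of -0.33 beside 0.0026 over all genes, of which 12.9% fell.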

How the data were processed

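Total RNA of 16 libraries in 4 groups was sequenced. The first table held, as deposited by the authors, a depth-normalized signal per gene and library. From the values, 100% of entries were whole numbers of reads, within 0.001 read, divided by 1 factor per library. The second table held FPKM as deposited by the authors, for the same libraries. The submitters' processing notes name Cufflinks, Cuffdiff 2.2.1, Bowtie2 2.2.1, TopHat2 2.0.13 and FastQC 0.11.3, and the builds GRCm38 and mm10, with no role or order. The counting tool, the annotation and the strand used in counting are not given in the sources used here.

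Genes with a mean of 10 or more (12469 of 17159, 72.7%) were tested with limma 3.58.1 (R 4.3.3, trend, 4 groups in 1 fit) on log2(signal + 1). Calls had a Benjamini-Hochberg adjusted p under 0.05. FPKM was fitted as log2(FPKM + 0.1) over 12449 genes. Recovered reads of 15 libraries were tested with edgeR 4.0.16 and DESeq2 1.42.0; fresh medium without methionine replicate 1 was left out because the value of 1 read there lay too close to 1 to be told from rounding. Alternatives were other pseudocounts (0.5, 4), no filter or a mean of 100, other scalings, pairwise fits, a replicate block and each library left out. The fit was tested on simulated data.

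The members and lists were chosen with earlier results of these data known. All members may be named. Values in every library are given for the lowest and highest gene of each role group in fresh medium without methionine against complete fresh medium, and 3 lowest and 3 highest genes are named from the second replication list, whose Ticrr is not in the table used here. Orc1 and Orc6, named beside the origin recognition genes, belong to that list too. The replicate numbers are not stated to pair libraries. Residuals of same-numbered libraries correlated between -0.067 and 0.068 in the 24 pairs, and 5 of 16 libraries were closest to their own number, so no block was used. In FPKM the correlation was 0.43 to 0.86 and 16 of 16 did, so a blocked FPKM fit is given. Gene positions are from GENCODE M21 (GRCm38), in which 17 of the 47 genes share exon positions with another gene, 14 of them on the opposite strand. RefSeq promoter entries matched 39 of 47 genes.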

Additional observations from a re-analysis of the deposited data

Results flagged for a closer look

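In 3 of 64 groups of 4 libraries, over the 16 genes whose library values are given, the lowest or highest library stood apart by Dixon's criterion, where chance flags about 1 in 20 groups. Cdc6 had 3801 depth-normalized reads in fresh medium without methionine, replicate 0, below the other 3 libraries. Tyms had 2105 reads in complete fresh medium, replicate 2, below the other 3, and 2186 in supplemented supernatant, replicate 2, above the other 3.

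The methionine effect differed between supernatant and fresh medium in 29 of the 47 genes (limma's interaction, adjusted p under 0.05, 4 libraries per medium). Of all genes 52.6% passed in it, so such a call alone sets no gene apart. Values are the log2 effect in supernatant minus the effect in fresh medium. In origin recognition the difference was 0.82 for Orc2, -0.29 for Orc3, 0.20 for Orc4 and 0.22 for Orc5. In licensing and the helicase core it was 0.37 for Cdc6, 0.23 for Cdt1, 0.43 for Mcm2, 0.13 for Mcm5 and -0.12 for Mcm7. In helicase activation it was 0.30 for Mcm10, 0.18 for Cdc45 and 0.36 for Gins3. Among polymerases and primase it was 0.31 for Pola1, 0.29 for Pola2, 0.20 for Prim1, 0.18 for Pold1, 0.17 for Pold2, 0.31 for Pole and 0.16 for Pole2. For the loader it was 0.15 for Rfc3 and 0.19 for Rfc5, and for strand binding 0.17 for Rpa2. In deoxynucleotide supply it was -0.17 for Rrm1, 0.16 for Rrm2, 0.30 for Tk1 and 0.25 for Tyms. In the last group it was 0.16 for Chaf1b, 0.13 for Slbp and 0.17 for Tipin. On the reads, Pole2 lost the call in edgeR (0.13, adjusted p = 0.0999), in DESeq2 (0.12, adjusted p = 0.136), after quantile normalization (0.12, adjusted p = 0.108), after TMM scaling (0.14, adjusted p = 0.0619) and when any of several single libraries was left out. Mcm7 lost it with TMM scaling and quantile normalization, Rfc3 with quantile normalization (0.11, adjusted p = 0.0937) and Slbp in DESeq2 (0.12, adjusted p = 0.0519). Rfc3, Chaf1b and Slbp each also lost it when single libraries were left out.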

How the results depend on the processing

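On the depth-normalized reads the counts of genes that fell or rose moved by at most 1.5 times under other pseudocounts, filters and scalings, in pairwise fits, and in edgeR and DESeq2. With each library left out in turn, lower and higher counts were 34 to 34 and 10 to 10 for fresh medium without against with methionine, 40 to 42 and 4 to 4 for supernatant against complete fresh medium, 5 to 6 and 39 to 40 for supplemented supernatant against supernatant, 30 to 33 and 3 to 5 for supplemented supernatant against complete fresh medium, 43 to 43 and 1 to 1 for supernatant against fresh medium without methionine, and 3 to 4 and 23 to 26 for the interaction. With a replicate block these counts, in the same order, were 34 and 10, 41 and 4, 5 and 40, 31 and 4, 43 and 1, and 4 and 26.

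From FPKM without the block, limma called 5 higher in the first comparison, 0 higher in the second (0 at an unadjusted p under 0.05), 1 lower in the third, 6 lower and 1 higher in the fourth, 1 lower and 0 higher in the fifth (25 and 0 unadjusted), and 0 lower and 0 higher in the interaction (0 and 3 unadjusted). On the reads edgeR and DESeq2 called 4 higher in the second, 1 higher in the fifth and 3 lower in the interaction. With the replicate block FPKM gave 2 higher in the fourth, 0 higher in the fifth, and 0 lower and 9 higher in the interaction, where 0 and 18 passed unadjusted. The cause was not tested. FPKM libraries with the same number deviated together, and the pairing has no stated source. Without the block the share of all genes that passed from FPKM was low in the fifth comparison (0.281%) and in the interaction (6.9%).

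Total-read scaling moved the median of all genes to 0.17, 0.15 and -0.14 in the first 3 comparisons. It changed the sign of Pola1 (0.13), Prim1 (0.0073), Tipin (0.11) and Orc6 (0.0044) in the first. It also did so for Gins3 (0.0049) in the second, and for Rrm2 (-0.068) and Asf1a (-0.011) in the third. Of these, Pola1, Tipin and Rrm2 passed with the new sign. Prim1, Orc6, Gins3 and Asf1a did not pass (limma adjusted p = 0.863, 0.929, 0.937 and 0.839). Quantile normalization reversed Rrm2 (-0.14) in the third.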
